A study of Mus musculus with 2 samples.

Results

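Single-cell RNA libraries of monocytes and macrophages from mouse skin wounds contained a class of barcodes in which transcripts of the mitochondrial genome made up 10% or more of all unique molecular identifiers (UMIs, the molecules counted per gene). A barcode stands for a droplet that caught a cell or part of one. Barcodes with at least 500 detected genes were divided at that share, which gave 649 high-mitochondrial barcodes of 1772 in the non-diabetic library and 266 of 2021 in the diabetic library. They were 36.6% (95% Clopper-Pearson interval 34.4% to 38.9%) and 13.2% (11.7% to 14.7%) of these barcodes, and 915 of the 4240 deposited barcodes in all. Each class was described against the 1123 and 1755 barcodes of the same library with at least 500 genes and under 10%, called low-mitochondrial barcodes here.

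The non-diabetic library came from wounds of non-diabetic mice and the diabetic library from wounds of diabetic mice, both on day 6 after injury. Cells from 2 mice were pooled in each library after enzymatic digestion, and cells with a viability over 85% were loaded on the 10x Chromium platform, which primes at the 3' poly-A end of RNA. The labels give no strain, age, sex or diabetes model, so strain, library and diabetes cannot be told apart. With 1 library in each group, differences could not be set against replicate spread, and no test was made. Intervals are at 95%, cover counting error only, and leave out variation between cells and mice. The libraries held 17559986 and 31730014 UMIs, and 6 barcode sequences occurred in both, none of them among the high-mitochondrial barcodes.

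The mitochondrial genome encodes subunits of the respiratory chain, and their mRNAs are made and kept inside the organelle. Most mRNAs from nuclear genes lie in the cytosol, while long noncoding RNAs such as Malat1 stay in the nucleus. A high mitochondrial share is often read in single-cell work as a sign of a damaged or leaking cell and such barcodes are commonly removed. Damage itself was not measured here, so the barcodes are called by their mitochondrial share.

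Malat1 and Gm42418 together held a large part of the remaining RNA, and their sequences are shown because the results turn on them. Malat1 lies at chr19:5795690-5802672 on mm10, on the minus strand, as a single exon of 6983 bases in GENCODE M21. A run of A bases near the 3' end of this annotated transcript is shown in capitals with 30 bases on each side. Whether the run lies inside the mature RNA or at its end was not examined. Gm42418 (chr17:39846958-39848788, plus strand, annotated as a lincRNA) is listed as a synonym of the pseudogene Rn18s-rs5 in RefSeq. Its first 1244 bases are identical to the reverse complement of part of CT010467.1, which GENCODE annotates as a ribosomal RNA on the opposite strand. The capitals below are the last 60 of those bases, and the lower-case bases lie past the end of the compared CT010467.1 sequence. Which strand matches mature ribosomal RNA was not examined. Whether the Gm42418 counts come from ribosomal RNA or from a separate lincRNA was not tested.
Malat1: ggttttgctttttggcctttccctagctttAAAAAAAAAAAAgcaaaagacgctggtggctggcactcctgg
Gm42418: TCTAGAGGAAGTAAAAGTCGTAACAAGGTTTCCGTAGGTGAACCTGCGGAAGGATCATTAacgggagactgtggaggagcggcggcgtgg

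The barcodes were chosen by their mitochondrial share of UMIs and their number of genes, so these values, and the UMI numbers that enter the share, are descriptions and not findings. High-mitochondrial barcodes had a median mitochondrial share of 20.9% (range 10.02% to 52.6%) in the non-diabetic and 25.7% (10.1% to 57.6%) in the diabetic library, against 3.51% and 3.81% in the low class. Their median of non-mitochondrial UMIs was 1965 and 2384.5, against 13580 and 15684, a 6.91-fold and 6.58-fold difference. Their median of mitochondrial UMIs was 547 and 842, against 472 and 621, so the number of mitochondrial molecules differed by 1.16-fold and 1.36-fold. At the threshold, the 28 non-diabetic barcodes between 9% and 10% had a median of 3608 non-mitochondrial UMIs and the 24 between 10% and 11% a median of 3376. In the diabetic library these bins held 9 and 7 barcodes, with medians of 8996 and 5785. Few barcodes lay near the threshold in the diabetic library.

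**Figure D1:**
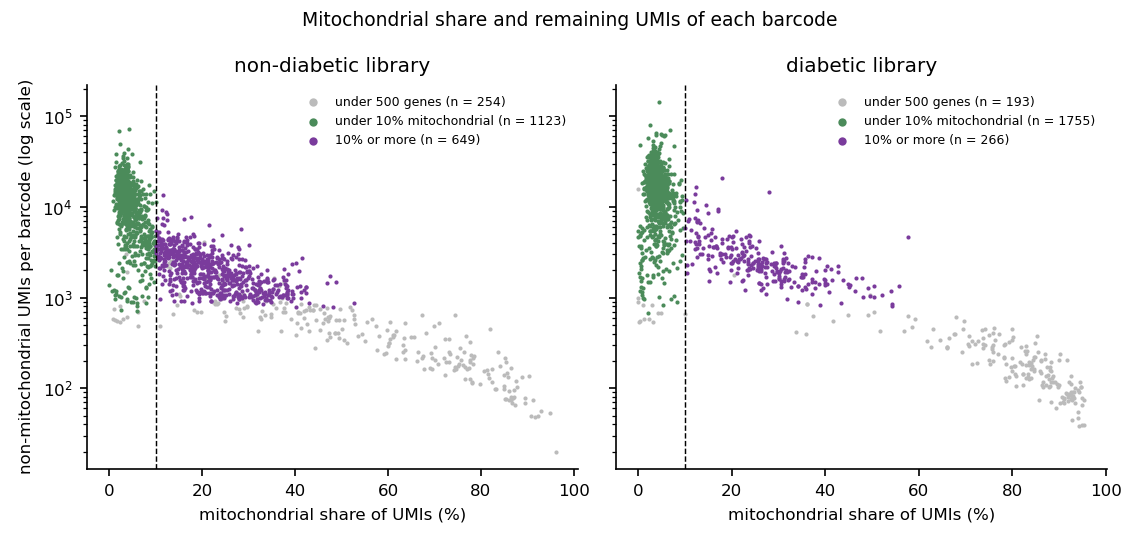
Each point is a barcode, with its mitochondrial share of UMIs (x axis, %) against its non-mitochondrial UMIs (y axis, log scale) in the 2 libraries. The dashed line marks 10%. High-mitochondrial barcodes have medians of 1965 and 2384.5 non-mitochondrial UMIs, below the medians of 13580 and 15684 of the low class.

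The 13 mitochondrial mRNAs were present in nearly the same proportions in both classes. In the non-diabetic library mt-Co3, a subunit of cytochrome c oxidase, took 21.8% of mitochondrial UMIs in high and 21.9% in low barcodes, and in the diabetic library 19.4% and 19.3%. The other abundant oxidase subunit, mt-Co1, took 20.5% against 21.6% and 18.1% against 19.5%. The ATP synthase subunit mt-Atp6 took 17.2% against 16.8% and 19.2% against 18.2%. The shares furthest below those of the low class belonged to mt-Atp8, at 0.77 and 0.67 times, and mt-Nd5, a complex I subunit, at 0.89 and 0.76 times. The share furthest above belonged to mt-Nd6, at 1.20 and 1.24 times, on about 0.319 and 0.402 UMIs per barcode.

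Markers of monocytes and macrophages, the cells the labels name, were present in the high barcodes of both libraries. Markers of each other lineage summed to less, with neutrophil markers the highest of them. Values in this paragraph are those of the high barcodes unless low barcodes are named. Lyz2 and Csf1r, the lysozyme and the CSF-1 receptor of mononuclear phagocytes, were read in both libraries: Lyz2 at 5244 and 6620 CPM, that is UMIs of the gene per 1000000 non-mitochondrial UMIs of the class, and Csf1r at 580.0 and 798 CPM. Summed CPM of the 12 macrophage markers was 8249 and 13919, and that of the 10 classical monocyte markers 5868 and 3934. The 12 T and NK cell markers summed to 70.7 and 60.6 CPM, with Cd3e, Cd3g, Trbc2 and Nkg7 at 0 in the high barcodes of both libraries. The 10 fibroblast markers summed to 46.2 and 92.8 CPM, the 12 keratinocyte markers to 127 and 21, and the 9 endothelial markers to 34 and 13.6. The erythroid genes Hbb-bs, Hbb-bt and Alas2 were at 0 in the high barcodes of both libraries. The 12 neutrophil markers summed to 358 CPM in non-diabetic and 1189 CPM in diabetic high barcodes, against 441 and 4893 in low barcodes.

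After each barcode was thinned to 500 non-mitochondrial UMIs, a macrophage marker was found in 80.7% (77.5% to 83.7%) of the non-diabetic and 91.4% (87.3% to 94.4%) of the diabetic high barcodes, against 71.1% and 79.5% of the low barcodes. A classical monocyte marker was found in 85.2% (82.2% to 87.9%) and 69.2% (63.2% to 74.7%), against 89.5% and 85.3%. A marker of T and NK cells, which these barcodes should lack, was found in 2.77% and 2.26%, against 4.27% and 4.44%. Keratinocyte markers were also less frequent in high barcodes, at 2.003% and 0.376% against 4.19% and 2.85%. Fibroblast markers went the other way, at 2.16% (1.18% to 3.59%) and 4.51% (2.35% to 7.75%), against 0.98% and 1.03%. Endothelial markers differed in direction between the libraries, and so did dendritic cell markers, at 4.16% and 10.9% against 8.99% and 6.84%. A neutrophil marker was found in 12.8% and 18.8% of high barcodes, against 13.2% and 35.7% of low ones. No barcode was too shallow for this depth. Without thinning the shares for macrophage markers were 96.6% and 98.5% in high and 98.9% and 99.0% in low barcodes, for monocyte markers 97.4% and 94.0% against 99.1% and 99.4%, and for T and NK markers 7.86% and 8.27% against 33.7% and 32.9%. At equal depth the high barcodes held a macrophage marker more often and a monocyte marker less often than the low barcodes of their library, and both shares were above the T and NK level. The number of genes detected in 500 UMIs was similar, with medians of 331 against 344 in the non-diabetic and 343.5 against 349 in the diabetic library.

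Joint clustering of both libraries without mitochondrial genes gave 15 clusters, of which 3 consisted mostly of high-mitochondrial barcodes. They held 84.1% (81.1% to 86.9%) of the non-diabetic and 62.8% (56.7% to 68.6%) of the diabetic high barcodes, but 5.88% and 0.114% of the low barcodes. No cell type name was given to these 3, because at most 2 markers of their best-fitting set were raised. Macrophage-like clusters, led by Atp6v0d2 or by Marco, held 4.93% (3.397% to 6.89%) and 20.7% (15.97% to 26.05%) of the high barcodes, against 6.32% and 21.03% of the low ones. At resolution 0.5 the macrophage-like clusters held 2.16% and 16.2% of the high barcodes, at resolution 2 they held 2.31% and 11.3%, and with mitochondrial genes kept 3.39% and 20.7%. Classical monocyte-like clusters held 0.770% and 1.88%, against 16.8% and 12.3%. The dendritic cell-like cluster held 2.003% and 0.752%, against 10.2% and 3.25%, and the neutrophil-like cluster none, against 0 and 14 low barcodes. By a limit of 3 counts, which is not a Clopper-Pearson bound, a count of 0 allows up to 0.462% and 1.13% of the high barcodes. Clusters mostly of 1 library or 1 class may reflect that library or class and not a cell type, so these shares are not a census of the cells the barcodes came from.

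**Figure D2:**
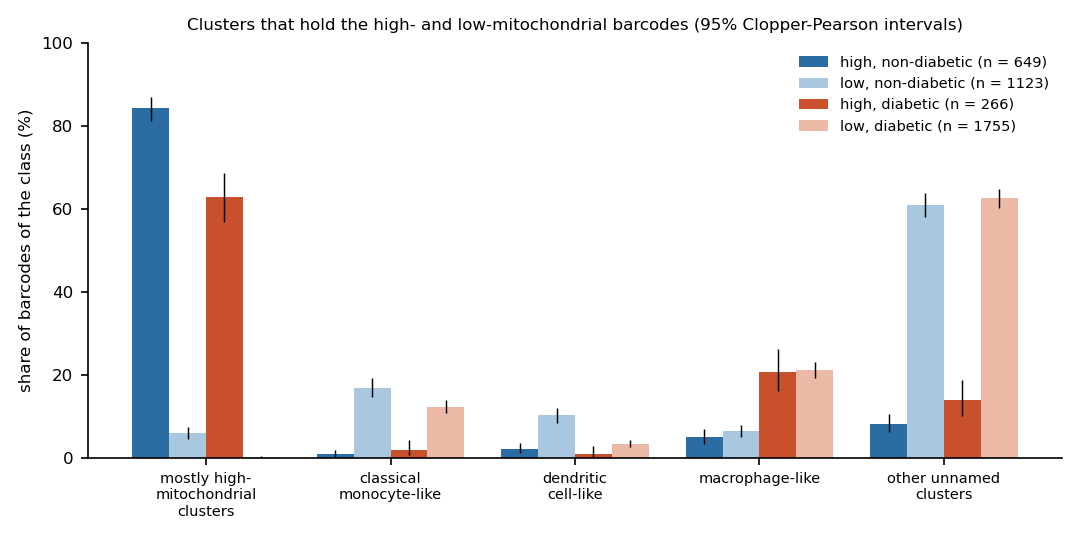
Bars give the share of each class (y axis, %) in clusters mostly of high-mitochondrial barcodes, in named clusters (the neutrophil-like one is left out) and in the other unnamed clusters, and error bars are 95% Clopper-Pearson intervals. The bars of the first group stand at 84.1% and 62.8% for high barcodes, and those of the macrophage-like group at 4.93% and 20.7%.

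The 3 clusters differed in what their RNA held. The Hist1h1d-led cluster, with 167 non-diabetic and 160 diabetic high barcodes, had C1qa, a complement subunit made by macrophages, at 531 and 895 CPM. In the cluster led by Gm26917 and then Pou3f1, with 270 non-diabetic barcodes and 1 diabetic, C1qa was at 167 CPM. In the Mybpc3-led cluster, with 109 and 6, C1qa was at 120 CPM. Gm42418 was at 192634 and 149892 CPM in the first cluster, and at 83835 and 47192 CPM in the 270 and 109 non-diabetic barcodes of the others. Gm26917, a gene model upstream of Gm42418, was at 11893 and 6244 CPM, against 30126 and 1286 CPM. Cxcl10, an interferon-induced chemokine, was lower in the first cluster, at 220 and 19.0 CPM in the Hist1h1d-led cluster and at 1399 and 749.8 CPM in the non-diabetic barcodes of the other two. The 19 inflammatory mediators summed to 6018 and 5322 CPM in the first, against 30063 and 32910 CPM. The 17 immediate early genes summed to 11857 and 9131 CPM, against 28590 and 20247. These clusters were built from the same genes, so the values describe them and test nothing.

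When each high barcode instead took the most frequent cluster among its 15 nearest low-mitochondrial neighbours, 53.005% (49.1% to 56.9%) of the non-diabetic ones matched a small cluster of low barcodes led by Gm42418 itself. That cluster held 59 non-diabetic and 3 diabetic low barcodes and had a median of 4011 non-mitochondrial UMIs and 6.99% mitochondrial UMIs, the shallowest of the low clusters. Of the diabetic high barcodes 17.3% (12.9% to 22.4%) matched it. Another 42.5% (36.5% to 48.7%) of the diabetic and 7.70% (5.77% to 10.0%) of the non-diabetic high barcodes matched a Gpr34- and Gas6-led cluster in which 8 of the 12 macrophage markers were high. That cluster holds 18.0% and 2.14% of the low barcodes, and it stayed unnamed because the B cell gene Cd79b was among its leading genes. Classical monocyte-like clusters of low barcodes took 17.3% (non-diabetic) and 3.76% (diabetic) of high barcodes in this way, against 0.770% and 1.88% by joint clustering. Of the non-diabetic ones 13.3% matched a monocyte-like cluster led by Glra1 and Ifit2, and 9.09% the Il23a- and Sema3c-led cluster. Macrophage-like clusters took 0.462% and 12.4%. The matches were loose, with a median of 10 and 11 of 15 neighbours in the winning cluster.

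What remained of the non-mitochondrial RNA was compared as CPM, which scales each class to the same total. Of 10645 genes with at least 20 UMIs in each library, 2963 were at least 1.5-fold higher in high than in low barcodes in both libraries, which is 27.8%, and 1255 were at least 1.5-fold lower in both, which is 11.8%. In the single libraries 37.2% and 40.5% were higher and 21.6% and 16.8% lower. The median gene had a log2 ratio of 0.28 and 0.36. With at least 10 UMIs expected in the high class, a filter chosen after seeing the data, the counts were 1521 and 1062 of 6647 genes, and with the scaling centred on the median gene they were 1754 and 2096, so the balance of higher and lower genes depends on the scaling and on the filter. With the low barcodes weighted to the depth of the high ones, 1998 genes were higher and 875 lower, of which 1372 and 563 were among the 2963 and 1255. This weighting leans on few barcodes, as only 39 non-diabetic and 33 diabetic low barcodes lay below the median depth of the high class. Depth and mitochondrial share go together in these barcodes, and the part of depth in single values was not tested beyond this weighting. The high barcodes kept 17.1% and 18.2% of the non-mitochondrial UMIs of a low barcode on average, and a gene that keeps more than this is higher in CPM even where its molecules per barcode were fewer.

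Malat1, Gm42418 and Gm26917 were high in both libraries. Malat1, a nuclear-speckle RNA, was at 85579 CPM in high and 19752 CPM in low barcodes of the non-diabetic library and at 82149 and 13782 CPM in the diabetic library. Its log2 ratios were 2.12 (interval 2.11 to 2.12) and 2.58 (2.56 to 2.59), and per barcode 74.1% and 109% of its UMIs in a low barcode remained. Gm42418 was at 100323 against 15460 CPM and 94943 against 9117 CPM, with log2 ratios of 2.70 and 3.38. Gm26917, its upstream neighbour on chromosome 17, was at 13258 against 237 CPM and 3963 against 105 CPM, log2 ratios of 5.80 and 5.24. These 2 gene models were chosen after their values were seen. Weighting the low barcodes to the clusters of the nearest neighbours, chosen after seeing the data, put the non-diabetic ratio of Gm42418 at -0.18. AY036118 (2.77 and 3.26) lies antisense within Gm42418, and whether its reads can be told from those of Gm42418 depends on strand counting, which is not given in the sources used here.

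Of the 10 nuclear long noncoding RNAs in the list, 7 were measured and 5 were at least 1.5-fold higher in both libraries, with a median log2 ratio of 1.17 and 1.11 against 0.28 and 0.36 for all measured genes. Neat1, the scaffold of paraspeckles, was at 2358 against 1045 CPM and at 1502 against 598 CPM. Kcnq1ot1, an imprinted antisense RNA, had log2 ratios of 0.78 and 1.11, and Tug1, a chromatin-associated RNA, 0.95 and 1.18. The annotated lincRNAs and antisense RNAs showed the same side: 47.9% of 215 lincRNAs and 47.1% of 155 antisense RNAs were higher in both libraries, against 27.1% of 10245 protein-coding genes.

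Among protein-coding genes the highest ratios belonged to genes of varied function. Lars2, the mitochondrial leucyl-tRNA synthetase, was at 1707 against 156 CPM in the non-diabetic and 1751 against 177 CPM in the diabetic library. It was among the leading genes of the Hist1h1d-led cluster and of the Gm42418-led cluster of low barcodes. Both clusters were also led by Gm42418, Gm26917 and AY036118. What the Lars2 counts have in common with those gene models was not tested. Hist1h1e, a linker histone, had log2 ratios of 3.05 and 2.88. Stard9, a kinesin, was at 2.39 and 2.49, and Golgb1, the Golgi tether giantin, at 2.21 and 2.18. Paxbp1 and the chromatin remodeller Chd6 stood at 2.33 and 2.69 and at 2.14 and 2.34. For Lars2 and Hist1h1e the UMIs per barcode were themselves above those of a low barcode, at 187% and 180.4% and at 142% and 134%. Stard9 and Golgb1 kept 89.3% and 102% and 79.3% and 82.3% of theirs.

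The genes lowest in the high class included secreted, surface and cytosolic proteins of myeloid cells. Plac8, a small cysteine-rich protein of monocytes, was at 104 against 1066 CPM and 39.6 against 357 CPM, and Slpi, a secreted protease inhibitor, at 85 against 759.8 and 246 against 1925 CPM. Fth1, the ferritin heavy chain that stores iron, was at 4205 against 17284 CPM and 5069 against 20238 CPM, so that it was 4.11-fold and 3.99-fold lower. Srgn, the proteoglycan core of secretory granules, had ratios of -2.27 and -2.18, and Timp1, a metalloproteinase inhibitor, -2.36 and -1.89. Per barcode, 4.16% and 4.56% of the Fth1 UMIs and 1.67% and 2.02% of the Plac8 UMIs of a low barcode remained, well under the 17.1% and 18.2% of all non-mitochondrial RNA.

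**Figure D3:**
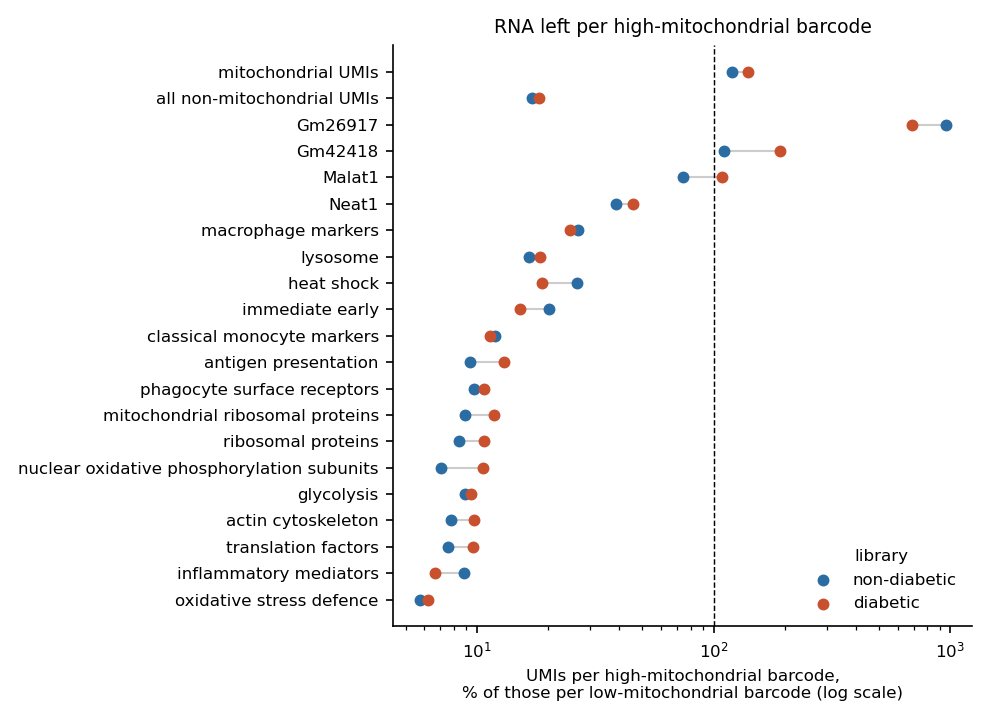
Mean UMIs per high-mitochondrial barcode as a percentage of those per low-mitochondrial barcode (x axis, log scale) for single genes and summed gene lists in the 2 libraries; the dashed line marks 100%. Mitochondrial UMIs, which the choice of barcodes used, stand at 119% and 140%, Malat1 at 74.1% and 109%, while ribosomal protein mRNA stands at 8.42% and 10.7%.

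The mRNAs of the translation machinery were low together. Of 84 measured ribosomal protein genes 59 were at least 1.5-fold lower in both libraries and none was higher in both, against 11.8% and 27.8% of all measured genes. Their median log2 ratio was -1.12 and -0.80, and they took 7.17% and 8.82% of the non-mitochondrial UMIs in high against 14.6% and 15% in low barcodes. Members varied: Rpl37a stood at -0.23 and -0.33, and Fau at -0.84 and -0.77. Many ribosomal protein genes have near-identical processed copies, so the counts of single members are uncertain. Of 15 translation factors 12 were lower in both. Eef1a1, which delivers tRNA to the ribosome, was at 1726 against 4507 and 2377 against 4432 CPM, whereas Eef2, which moves the ribosome along, was at 569.8 against 633 and 552 against 623 CPM and was not past 1.5-fold.

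Mitochondria also need proteins encoded in the nucleus. Of 73 nuclear subunits of oxidative phosphorylation 47 were lower and none higher in both libraries, with a median log2 ratio of -1.31 and -0.78. Cox4i1 and Cox8a, nuclear partners of mt-Co1 in cytochrome c oxidase, were at -1.06 and -0.80 and at -2.61 and -1.61. Per barcode 7.05% and 10.6% of this mRNA remained, against 17.1% and 18.2% of all non-mitochondrial RNA. Of 74 mitochondrial ribosomal protein genes 30 were lower and 1 higher in both. None of the 9 mitochondrial chaperones and proteases passed 1.5-fold in both libraries, and the list's median was -0.0041 and 0.025. Of 18 genes of mitophagy and mitochondrial gene expression 3 were higher (16.7%) and 2 lower (11.1%) in both, beside 27.8% and 11.8% of all measured genes, Bnip3, a mitophagy receptor, being low at -1.02 and -0.84.

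Abundant cytosolic programmes of the myeloid cell were also low. Of 16 actin cytoskeleton genes 12 were lower in both libraries, against 11.8% of all measured genes. Tmsb4x, which binds actin monomers, was at 4660 against 13521 CPM and 5725 against 12630 CPM, and Actb at 6645 against 10497 and 6250 against 9451 CPM. Of 14 glycolysis genes 6 were lower, with Gapdh at -1.66 and -1.38. Of 17 oxidative stress genes 7 were lower, among them the ferritin chains Fth1 and Ftl1 (-1.76 and -1.58), and 1 was higher. Gpx1, a glutathione peroxidase, was at 1374 against 1374 and 1332 against 1685 CPM.

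Inflammatory mediators were lower in the high barcodes of both libraries, each class taken as a whole. Of 19 genes 14 were lower and none higher in both, with medians of -1.13 and -1.51. Il1b, the interleukin-1 beta precursor, was at 1305 against 5657 CPM and 1517 against 4851 CPM. The neutrophil-attracting chemokine Cxcl3 was at 593 against 3694 and 668 against 3734 CPM, and Cxcl2 at 10918 against 20178 and 4250 against 11964 CPM. Nfkbia, the NF-kB inhibitor, did not follow and had ratios of 0.15 and -0.46. The LPS co-receptor Cd14 was at -2.05 and -1.80, one of 6 lower genes among 18 phagocyte surface receptors, of which none was higher.

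The medians of further lists lay below the 0.28 and 0.36 of all measured genes. Of 19 lysosomal genes 2 were lower and 2 higher in both libraries, with a median of -0.18 and 0.023, or -0.47 and -0.33 with the scaling centred on the median gene. Psap, the saposin precursor, was at 1841 against 2093 and 2228 against 2069 CPM, and Ctsb, a lysosomal protease, at 0.50 and 0.41. Of 15 genes of protein folding in the endoplasmic reticulum 5 were lower, with Sec61b, a small subunit of the translocon, at -2.58 and -1.61, and Calr at 0.14 and -0.11; the list's median was -0.39 and -0.37. Of 14 antigen presentation genes 3 were lower and 1 higher, with a median of -0.44 and -0.46. Centred on the median gene these medians were -0.68 and -0.72 for folding and -0.73 and -0.82 for antigen presentation, past 1.5-fold lower in both libraries. Beside the 27.8% higher and 11.8% lower of all measured genes, 3 of 21 genes of the apoptosis and p53 list were higher (14.3%) and 5 lower (23.8%). In the list of lytic cell death 1 of 13 was higher (7.69%) and 3 lower (23.1%), among the latter Ninj1, which ruptures the plasma membrane, at -0.75 and -0.68. Gpx4, which guards against lipid peroxidation, was at 0.50 and 0.14.

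Stress and immediate early lists had few members past 1.5-fold in both libraries, beside 27.8% higher and 11.8% lower of all measured genes. The inducible chaperones Hspa1a and Hspa1b were at 4412 against 2411 and 3254 against 1320 CPM in the non-diabetic library, and at 2674 against 2075 and 2157 against 1508 CPM in the diabetic library. The 2 genes are near-identical copies, so the split between them is uncertain. Of 11 heat shock genes 1 was higher and 1 lower in both. Of 17 immediate early genes 3 were higher and 1 lower, Jun being at 2887 against 1187 and 1194 against 772 CPM and Ier3, the lower one, at -0.73 and -1.19. Centred on the median gene, Jun was at 0.27 in the diabetic library, under 1.5-fold. In the integrated stress response none of 11 was higher and 2 were lower in both. Its effector Ddit3 was at 94.5 against 39.7 CPM in the non-diabetic and at 18.6 against 22.1 CPM in the diabetic library.

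Monocyte and macrophage markers kept different fractions. Of 12 macrophage markers 4 were higher (33.3%) and 2 lower (16.7%) in both libraries, near the 27.8% and 11.8% of all measured genes. Their median was 0.67 and 0.12, above that of all measured genes (0.28) in the non-diabetic and below it (0.36) in the diabetic library. Among the higher ones, Apoe, a lipid carrier of mature macrophages, was at 5365 against 3134 CPM and 8110 against 5156 CPM. Csf1r, another of them, was at 580.0 against 351 and 798 against 532 CPM. With the scaling centred on the median gene Apoe was at 0.49 and 0.30 and Csf1r at 0.44 and 0.23, under 1.5-fold. Of 10 classical monocyte markers none was higher and 4 were lower, with a median of -0.48 and -0.98. Chil3, a chitinase-like protein of inflammatory monocytes, was at 736 against 1441 and 202 against 421 CPM, and Lyz2, chosen after its values were seen, had log2 ratios of -1.23 and -1.17. With low barcodes weighted to the depth of the high ones the non-diabetic ratios of Chil3 and Lyz2 were 0.0042 and 0.15. F13a1, another monocyte marker, did not pass 1.5-fold, at 0.33 and -0.014. The macrophage markers as a whole kept 26.7% and 24.8% of their UMIs per barcode and the monocyte markers 11.9% and 11.4%. Apoe alone had 5365 and 8110 of the 8249 and 13919 CPM that the macrophage set summed to in high barcodes. Adgre1, another of its markers, was less frequent at 500 UMIs per barcode, in 3.85% and 4.51% of high against 4.63% and 10.8% of low barcodes. Csf1r and C1qa were more frequent in high barcodes of both libraries at that depth.

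The ratio ran with transcript length. The 10636 genes matched to GENCODE were split into 5 equal classes by the length of their longest spliced transcript. In the class of shortest transcripts (154 to 1902 bases) the median log2 ratio was -0.55 in the non-diabetic and -0.37 in the diabetic library, and it went up from class to class to 0.75 and 0.83 among the longest (5204 to 123179 bases). In the shortest class 32.3% of 2128 genes were lower in both libraries and 11.1% higher; in the longest 1.93% of 2127 were lower and 49.9% higher. The shortest class also stood below the longest among genes of high and of low level. From a mean of 42.04 to 54961 CPM the shortest and longest classes stood at -0.94 and 0.82 (non-diabetic) and -0.74 and 0.84 (diabetic). Up to a mean of 12.3 CPM they stood at -0.044 and 0.69 (non-diabetic) and 0.13 and 0.85 (diabetic). Over all levels, leaving out ribosomal protein and oxidative phosphorylation genes gave -0.49 and 0.76, and -0.31 and 0.83. Across genes, which are not independent, Spearman's rho between length and ratio was 0.42 in the non-diabetic and 0.40 in the diabetic library over 10636 genes. Longer transcripts also held A runs inside the annotated sequence more often. A run of at least 12 A, more than 50 bases from the transcript end, was present in 10.8% of all 10636 genes and 24.2% of the longest class. Within that class it was in 21.02% of the 1061 genes higher in both libraries and in 31.7% of the 41 genes lower in both. Over all lengths it was in 12.6% of the higher and 5.18% of the lower genes. The part of such runs in the ratios was not tested.

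**Figure D4:**
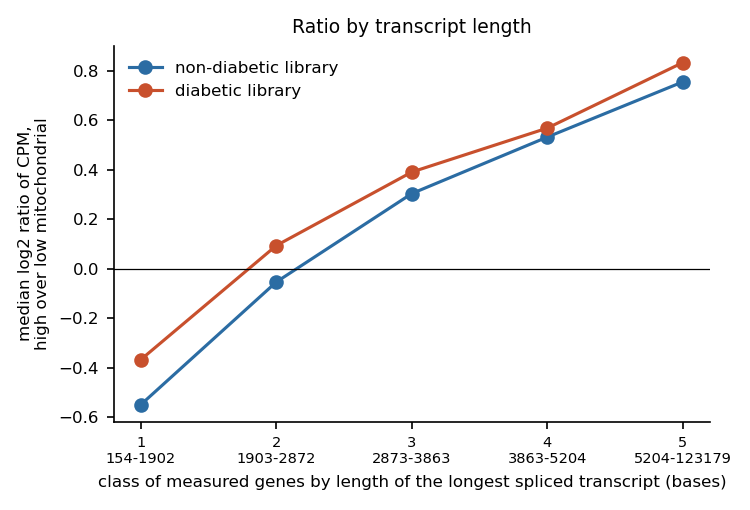
Median log2 ratio of CPM, high over low mitochondrial (y axis), in 5 equal classes of the measured genes by length of the longest spliced transcript (x axis, bases), for the 2 libraries. Both lines go up at every step, from -0.55 and -0.37 to 0.75 and 0.83.

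Levels also differed between bins of mitochondrial share, including the bins below 10%. Malat1 was at 17994 CPM in non-diabetic barcodes under 5%, 32465 between 5% and 10%, 81068 between 10% and 20%, 92075 between 20% and 40%, and 97814 above 40%. In the diabetic library the same bins gave 13344, 17100, 61946, 98573 and 119686 CPM. Fth1 went the other way, from 18020 to 11957, 5204, 2696 and 3005 CPM and from 21170 to 13180, 7643, 2806 and 1961 CPM. Ribosomal protein mRNA summed to 150783, 108858, 76403, 65439 and 48946 CPM in the non-diabetic bins, and to 148975, 159502, 107334, 71160 and 66809 CPM in the diabetic ones. Csf1r was at 337, 453, 600.3, 543 and 703 CPM and at 516, 656, 772, 839 and 662 CPM. The bins above 40% held 19 and 26 barcodes and are thin.

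**Figure D5:**
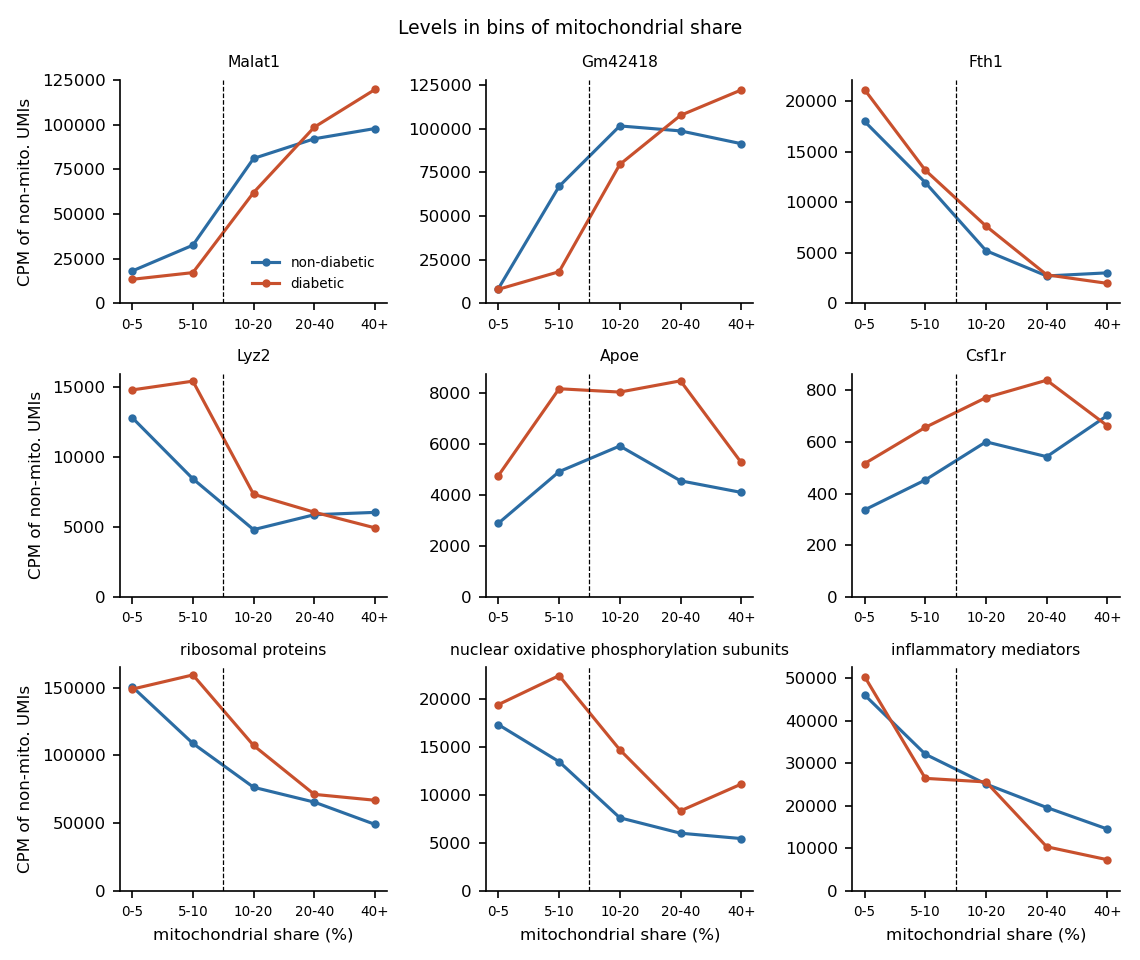
Summed CPM of non-mitochondrial UMIs (y axes, from 0) of 6 genes and 3 gene lists in bins of mitochondrial share (x axes, %) in the 2 libraries; the dashed line marks 10%. Malat1 and Gm42418 are higher and Fth1 is lower in every bin above the line than in the lowest bin, and Csf1r is higher there too.

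High and low barcodes were also set side by side inside single clusters, with genes that lead a cluster left out because they placed the barcodes there. In the Marco-led macrophage-like cluster of the diabetic library (44 high and 191 low barcodes, medians of 3144 and 19978 non-mitochondrial UMIs), Malat1 was at 127914 against 21386 CPM and Fth1 at 6742 against 21084 CPM. C1qa was at 1669 against 2407 CPM there. In the Sema3c-led cluster of the non-diabetic library (34 and 340 barcodes) Malat1 was at 94772 against 26214, Fth1 at 16598 against 30047 and C1qa at 389 against 151 CPM. In the Atp6v0d2-led cluster of the non-diabetic library (28 and 63 barcodes) Malat1 was at 92096 against 22818, Fth1 at 6301 against 22034 and C1qa at 1719 against 1392 CPM. Malat1 was thus higher and Fth1 lower in the high barcodes of each cluster, while C1qa differed in direction. Median log2 ratios of ribosomal protein genes within the 3 clusters were -0.87, -0.58 and -0.69, and those of nuclear oxidative phosphorylation -0.84, -0.65 and -0.64. Those of inflammatory mediators were -0.207 in the Marco-led, -1.29 in the Sema3c-led and -1.501 in the Atp6v0d2-led cluster. The Marco-led value was under 1.5-fold, while the whole diabetic library had a median of -1.51 for this list. The reason for this difference was not tested.

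Some genes had opposite ratios in the 2 libraries, 267 of 10645 at 1.5-fold in each direction (2.51%). In several the value came from 1 barcode. Col1a1, a fibroblast collagen, was at 17 against 104 CPM in the non-diabetic and 26 against 2.6 CPM in the diabetic library, but 1521 of its 1545 UMIs in non-diabetic low barcodes lay in 1 barcode. Without the fullest barcode of each class, an alternative chosen after seeing the data, the log2 ratios were 3.27 and 3.27. Mmp12, a macrophage elastase, was at 88.4 against 32.7 and 11.1 against 131 CPM, with 104 of 130 UMIs of the non-diabetic high class in 1 barcode, and without it the non-diabetic ratio was -0.65; the diabetic high class held 9 UMIs. S100a9, a calcium-binding protein of neutrophils and monocytes, was at 49 against 28.8 and 70.5 against 427 CPM, with 45 of 72 UMIs in 1 barcode, and without it at -0.12 and -2.53. Clec10a, a lectin of macrophages and dendritic cells, was spread over 33 and 53 high barcodes. Without the fullest barcodes it kept its opposite ratios, at -1.67 and 0.93. With low barcodes weighted by depth the sign of its non-diabetic ratio turned.

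The 2 libraries' high classes were also set side by side, as the design compares diabetic with non-diabetic wounds. Of 8109 genes with at least 20 UMIs over both high classes, 2284 were at least 1.5-fold higher in the diabetic one (28.2%) and 1099 lower (13.6%). In the low classes it was 18.9% and 12.8% of 12312 genes. Of the 8103 genes measured in both classes, 899 were higher and 796 lower in the diabetic low class. Of the 2284 genes higher in the diabetic high class 609 were also higher in the diabetic low class, 26.7% of the first list and 67.7% of the second, restricted to genes measured in both. Of the 1093 lower ones 541 were lower in both, 49.5% and 68.0%. The high classes differed in share, cluster makeup and mitochondrial content, and none of this could be tested with 1 library per group.

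Saa3, an acute-phase protein, was at 6740 CPM in diabetic and 112 CPM in non-diabetic high barcodes, and at 16987 and 187 CPM in low ones. The metalloproteinase Mmp9 was at 265 against 4.08 CPM, but 103 of its 214 UMIs in diabetic high barcodes lay in 1 barcode, and without the fullest barcodes it was at 141 against 2.73 CPM. Wfdc21, a secreted antimicrobial protein, was at 289.6 against 8.16 CPM. Nos2, the inducible nitric oxide synthase, was at 63.1 against 3.4 CPM, on 51 and 5 UMIs. Interferon-induced genes stood on the other side. Cxcl10 was at 29.7 CPM in diabetic and 794 CPM in non-diabetic high barcodes, Slfn4 at 27.2 and 563 CPM, and Isg15 at 24.8 and 299.9 CPM. The median log2 ratio of the interferon list, diabetic over non-diabetic, was -3.20 in the high and -2.18 in the low class. Of its 18 measured members 3 were higher and 1 lower in high than in low barcodes of both libraries, with median log2 ratios of 0.64 and -0.57. Slfn4 was among the higher ones, at 2.27 and 1.38, but at -0.10 in the non-diabetic library with low barcodes weighted by depth.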

How the data were processed

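Wound cells pooled from 2 mice per group gave 1 library per group. The authors deposited UMI counts per gene and barcode, made with Cell Ranger 3.0.2, per the file headers. The submitters' processing notes name the build mm10. Which annotation, strand setting and barcode filter were used is not given in the sources used here.

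UMIs were summed per class and library and expressed as CPM of non-mitochondrial UMIs. Ratios are log2 with a pseudocount of 0.5 on the sums and conditional exact binomial intervals. A gene was measured with at least 20 UMIs in each library, and 71 entries with duplicated symbols were left out. A difference was counted from 1.5-fold in the same direction in both libraries. Barcodes were clustered with scanpy 1.11.5 (2000 variable genes, 30 components, 15 neighbours, resolution 1) without mitochondrial genes. A cluster was named when at least 3 markers and 50% of a set were at least 2-fold higher and in 10% of its cells, unless another class led it; this rule was set after the clusters were seen. Scrublet marked 1 and 3 barcodes, so doublets may remain. Lengths came from GENCODE M21, matched by identifier for 10636 genes. The ratio script was tested on simulated data.

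The members, markers and gene lists were chosen with earlier results of these data known. Named genes were, from 100 CPM, the 12 with the largest ratio in each direction, the 5 with the largest difference of ratio between libraries, the 6 highest and lowest between libraries, and up to 4 abundant members of each list; exceptions are stated. Alternatives covered the mitochondrial and gene thresholds, scaling (with edgeR 4.0.16 and DESeq2 1.42.0 factors), weighting, filters, pseudocount and clustering. With 1 library per group no test was made.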

Additional observations from a re-analysis of the deposited data

Results flagged for a closer look

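Genes named above had opposite log2 ratios, high over low mitochondrial, in the 2 libraries, and the difference between the libraries was not tested. Col1a1 was at -2.58 in the non-diabetic and 3.35 in the diabetic library, and Clec10a at -1.51 and 1.07. Mmp12 was at 1.44 and -3.48, and S100a9 at 0.77 and -2.58. For Col1a1, Mmp12 and S100a9 most UMIs of 1 non-diabetic class lay in 1 barcode.

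Barcodes with under 500 genes entered no comparison. Their median mitochondrial share was 51.9% in the non-diabetic library (254 barcodes) and 82.7% in the diabetic library (193 barcodes), above the 3.51% and 3.81% of the low class.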

How the results depend on the processing

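Of 2963 genes higher in both libraries, the count was 1318 with a 5% mitochondrial threshold, 1754 centred on the median gene, 1729 with TMM and 1897 with DESeq2 factors, 1809 with CPM of all UMIs, 5803 without a filter, 4736 with pseudocount 5 and 1457 at 2-fold. Weighting low barcodes by depth gave 1998 higher and 875 lower genes, which share 1372 and 563 with the main calls. Of 1255 lower genes it was 187 at 5%, 2096 centred, 2121 with TMM, 1980 with DESeq2 factors, 2045 with CPM of all UMIs, 750 with pseudocount 5 and 504 at 2-fold. Alternatives chosen after seeing the data gave 1521 higher genes with at least 10 UMIs expected, and 768 lower genes outside the high barcodes' own clusters and 734 with a total without Malat1, Gm42418, Gm26917 and AY036118. Of the gene lists, 1 had a median at least 1.5-fold higher in both libraries (0 at 5%, 2 with pseudocount 5) and 5 lower (0 at 5%, 8 at 20%, 10 under each of the 4 scalings, 8 with per-barcode means, 3 with low barcodes weighted by depth and 3 without the 4 RNAs). The class was 50.5%, 28.4% and 19.6% of non-diabetic barcodes at thresholds of 5%, 15% and 20%, and 41.0% and 21.7% at 200 and 1000 genes; diabetic shares were 25.5%, 11.3%, 9.30%, 15.5% and 9.42%. Their own clusters held 73.3% and 71.4% of diabetic high barcodes at resolution 0.5 and 2 and 79.7% with mitochondrial genes kept, and 87.7% of non-diabetic ones at resolution 0.5. Thinned to 1000 UMIs, the ratio of detected genes was 0.995 and 1.03, against 0.962 and 0.984. Between libraries, 1470 genes were higher in the diabetic high class with TMM factors, against 2284.

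Weighting by depth leans on the few shallow low barcodes, 39 non-diabetic and 33 diabetic ones below the median depth of the high class. Signs turned with low barcodes weighted by depth for non-diabetic interferon genes (-0.11), Col1a1 (1.08), Clec10a (0.084), Mmp12 (-0.81), Saa3 (1.17), Mmp9 (-0.99), Slfn4 (-0.10), Chil3 (0.0042) and Lyz2 (0.15). At 5% they turned for diabetic nuclear oxidative phosphorylation (0.072), Mmp12 (0.38), S100a9 (0.23), Cxcl10 (0.48), Isg15 (0.16), Jun (-0.080) and Cox4i1 (0.097), and for non-diabetic S100a9 (-0.15) and Saa3 (0.54). Non-diabetic S100a9 was at -1.21 and -1.12 at 15% and 20%, and Mmp12 at -0.54 at 20% and -0.31 with per-barcode means. Without the fullest barcode non-diabetic Col1a1, Mmp12 and S100a9 were at 3.27, -0.65 and -0.12. With low barcodes weighted by nearest-neighbour cluster, chosen after seeing the data, non-diabetic C1qa was at -0.32 and Gm42418 at -0.18. The cause was not tested. Weighting by joint cluster was not run, since the own clusters hold 1, 1 and 0 diabetic low barcodes. No paired analysis was possible because each group is 1 library and its replicate number is only a name.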

Other observations

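In the diabetic library 1 barcode with under 500 genes held 15163 haemoglobin UMIs of its 15678 non-mitochondrial UMIs (96.7%). In the high-mitochondrial class haemoglobin was seen as 1 UMI in each library.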
